A study of Mus musculus with 6 samples.

Results

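The sirtuins are 7 genes, *Sirt1* to *Sirt7*, which are all the members of one gene family, so that no measured value entered the rule, out of 54115 genes with a transcript in the data. Their transcripts were measured by RNA-sequencing in satellite cells, the PAX7-expressing stem cells of skeletal muscle, freshly sorted from uninjured hindlimb muscles of C57BL/6J mice as cells with α7-INTEGRIN and CD34 and without CD31, CD45, CD11b and SCA-1 on their surface. The 3 Pax7WT libraries came from mice with unaltered *Pax7*. The 3 Pax7KR libraries came from mice in which CRISPR/Cas9 editing had replaced an acetylated lysine of PAX7 by arginine, so that every cell of the animal carried the change, not satellite cells alone. No treatment or injury was applied to either group, the methods give 6 to 8 weeks as the age of the mice, and each library was made from 15 ng of RNA. The submitters describe the samples as biological replicates, and the labels do not say whether a sample was 1 animal or a pool.

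Sirtuins remove acetyl and other acyl groups from lysines and consume NAD+ while doing so, which ties their activity to the metabolic state of the cell. SIRT1, SIRT6 and SIRT7 are mainly nuclear, SIRT2 is mainly cytosolic and also acts on chromatin, and SIRT3, SIRT4 and SIRT5 are mitochondrial. In satellite cells the family is of interest because SIRT2 was studied as a deacetylase of PAX7, opposite to the acetyltransferase MYST1, whose gene is *Kat8*. The question asked of the data was how much of each sirtuin transcript the sorted cells held and whether the Pax7KR cells held more or less of it.

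The sequences that separate the sirtuin transcript forms were read first, because the forms are quantified separately. The 2 leading forms of *Sirt2* differ by a coding exon of 47 bases at chr7:28767632-28767678 (GRCm38, + strand), present in Sirt2-201 and absent from Sirt2-202. The exon is shown in capitals between 15 bases of the exons on either side in Sirt2-201, and the same joint without it in Sirt2-202. The exon is part of a longer first exon, outside the coding region, in the form Sirt2-208.
Sirt2-201: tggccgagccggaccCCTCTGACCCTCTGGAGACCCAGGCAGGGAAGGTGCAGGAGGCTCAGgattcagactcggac
Sirt2-202: tggccgagccggaccgattcagactcggac

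The open reading frame of Sirt2-201 holds 389 codons and that of Sirt2-202 holds 352. The exon of 47 bases is not a whole number of codons, so it does not account for this difference alone. In *Sirt1*, Sirt1-201 (737 codons) holds a coding exon of 117 bases at chr10:63336980-63337096 (GRCm38, - strand) that Sirt1-202 lacks, so the frame is kept. It is shown in the same way.
Sirt1-201: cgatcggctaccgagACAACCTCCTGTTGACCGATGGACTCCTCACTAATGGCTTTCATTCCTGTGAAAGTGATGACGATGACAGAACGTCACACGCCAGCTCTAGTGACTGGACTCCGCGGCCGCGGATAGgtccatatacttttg
Sirt1-202: cgatcggctaccgaggtccatatacttttg

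In *Sirt4*, the form with the highest mean TPM, though not the highest in Pax7WT replicate 3, was Sirt4-206, annotated as a retained intron. Its first exon begins inside an intron of the protein-coding form Sirt4-201, and the 126 intron bases it carries lie at chr5:115479813-115479938 (GRCm38, - strand). The capitals mark the AG at the end of that intron.
Sirt4-206: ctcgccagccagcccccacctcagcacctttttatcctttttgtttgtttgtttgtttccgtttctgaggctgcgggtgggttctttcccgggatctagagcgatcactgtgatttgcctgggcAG

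*Sirt2* held by far the most transcript per length of the family, and 6 of the 7 genes lay within a far narrower range below it. TPM (a transcript's share of all transcripts, corrected for length) of *Sirt2*, summed over its transcripts, was 195.6, 199.0 and 199.8 in the Pax7WT libraries and 206.6, 189.4 and 203.1 in the Pax7KR libraries. The mean was 198.9 ± 5.97 TPM (SD, n = 6), 56.4% of the TPM of the whole family, and higher than that of 96.8% of the genes tested. The 6 libraries were close together, and the genotypes overlapped.

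*Sirt4* came next at 39.5 ± 5.42 TPM, followed by *Sirt7* at 38.2 ± 4.94, *Sirt1* at 24.2 ± 1.94, *Sirt5* at 23.1 ± 2.20, *Sirt3* at 15.3 ± 2.58 and *Sirt6* at 13.8 ± 1.02 (SD, n = 6 for each). Even *Sirt6*, a nuclear sirtuin with roles in DNA repair and glucose metabolism, lay above 53.0% of the genes tested. By mean TPM in these same 6 libraries, which set both the order and the pairs compared, the genes lay in 4 steps. In all 6 libraries *Sirt2* was above *Sirt4*, *Sirt7* was above *Sirt1* and *Sirt5* was above *Sirt3*, with no overlap of their ranges. The mean log2 differences of these neighbours were 2.34, 0.65 and 0.61, each with an adjusted p = 0.0625 over the 6 neighbouring pairs in an exact two-sided sign-flip permutation test. The unadjusted p of 0.03125 is the smallest that 6 libraries allow. *Sirt4* and *Sirt7* did not differ beyond their spread (log2 difference 0.04 ± 0.27, SD, higher in 4 of 6 libraries). The same held for *Sirt1* and *Sirt5* (0.07 ± 0.21, 4 of 6 libraries) and for *Sirt3* and *Sirt6* (0.13 ± 0.32, 4 of 6 libraries).

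The place of *Sirt4*, a mitochondrial sirtuin known to act on glutamate and fatty acid metabolism, depended on which transcripts were counted. Its protein_coding transcripts, Sirt4-201 and Sirt4-202, held 13.6%, 11.3% and 6.67% of its TPM in the Pax7WT libraries and 7.60%, 11.1% and 12.6% in the Pax7KR libraries. The rest lay on transcripts annotated as retained introns (60.5% to 81.8% in the 6 libraries) or as processed transcripts without a reading frame (11.5% to 26.0%). By share of estimated reads, Sirt4-201 held 11.1% to 26.5% and Sirt4-202 held 0% to 17.0% of *Sirt4* in the 6 libraries. Sirt4-201 is 1794 bases long and Sirt4-206 is 733 bases long, and TPM corrects for length. With protein_coding transcripts alone, *Sirt4* had 4.04 ± 0.84 TPM (SD, n = 6) and moved from the second place to the last. It was then below *Sirt7* by 2.66 on the log2 scale (adjusted p = 0.0375, the same exact permutation test, at its smallest unadjusted p). Under this count *Sirt2* kept the first place with 178.7 ± 5.07 TPM. *Sirt7* followed with 25.9 ± 4.39 TPM. *Sirt5*, with 21.5 ± 1.59 TPM, passed *Sirt1*, with 18.0 ± 1.41 TPM, while *Sirt3* (12.8 ± 2.87) and *Sirt6* (11.6 ± 1.35) stayed side by side. The *Sirt5* count includes a form of 134 codons, with a mean of 4.65 TPM. It also includes a form of 95 codons, with a mean of 1.37 TPM and at 0 in 4 libraries. The leading form of *Sirt5* has 310 codons, and the protein_coding forms of *Sirt1* have 553 to 737. Whether *Sirt5* stays above *Sirt1* without its short forms was not tested.

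**Figure D1:**
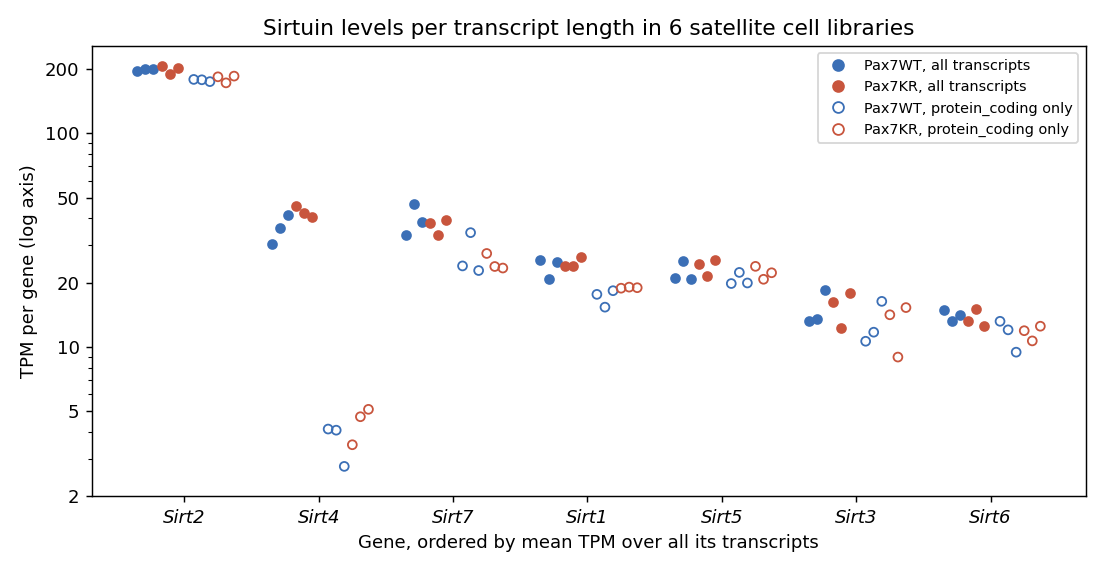
TPM of each sirtuin (log axis) in the 3 Pax7WT (blue) and 3 Pax7KR (red) libraries, over all transcripts (filled) and over protein_coding transcripts alone (open), with genes ordered by mean TPM. *Sirt2* sits near 198.9 TPM above all others, and *Sirt4* drops from 39.5 to 4.04 TPM when only protein_coding transcripts are counted.

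For the other sirtuins most of the TPM was on protein_coding transcripts. The mean share was 93.3% for *Sirt5*, 89.9% for *Sirt2*, 84.6% for *Sirt6*, 83.6% for *Sirt3*, 74.4% for *Sirt1* and 67.9% for *Sirt7*. This label also covers forms with short reading frames. In *Sirt5*, forms of 134 and 95 codons had mean shares of 19.96% and 5.84%. In *Sirt6*, a form of 64 codons had a mean share of 10.38%. In *Sirt7*, a form of 121 codons had 25.35% in Pax7WT replicate 2 and was at 0 in the other 5 libraries. The protein_coding forms of *Sirt2* have 319 to 389 codons. *Sirt7*, whose product is nucleolar and acts on ribosomal RNA transcription, also held 20.8% to 35.1% of its TPM on retained-intron forms. *Sirt1* held 9.55% to 25.0% on a form annotated for nonsense-mediated decay. *Sirt6* varied most between libraries, from 66.7% protein_coding in Pax7WT replicate 3 to 100% in Pax7KR replicate 3. Between genotypes, the exact two-sided permutation test of 3 against 3 gave p from 0.3 to 1 for this share in the 7 genes, in a design in which p cannot go below 0.1.

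**Figure D2:**
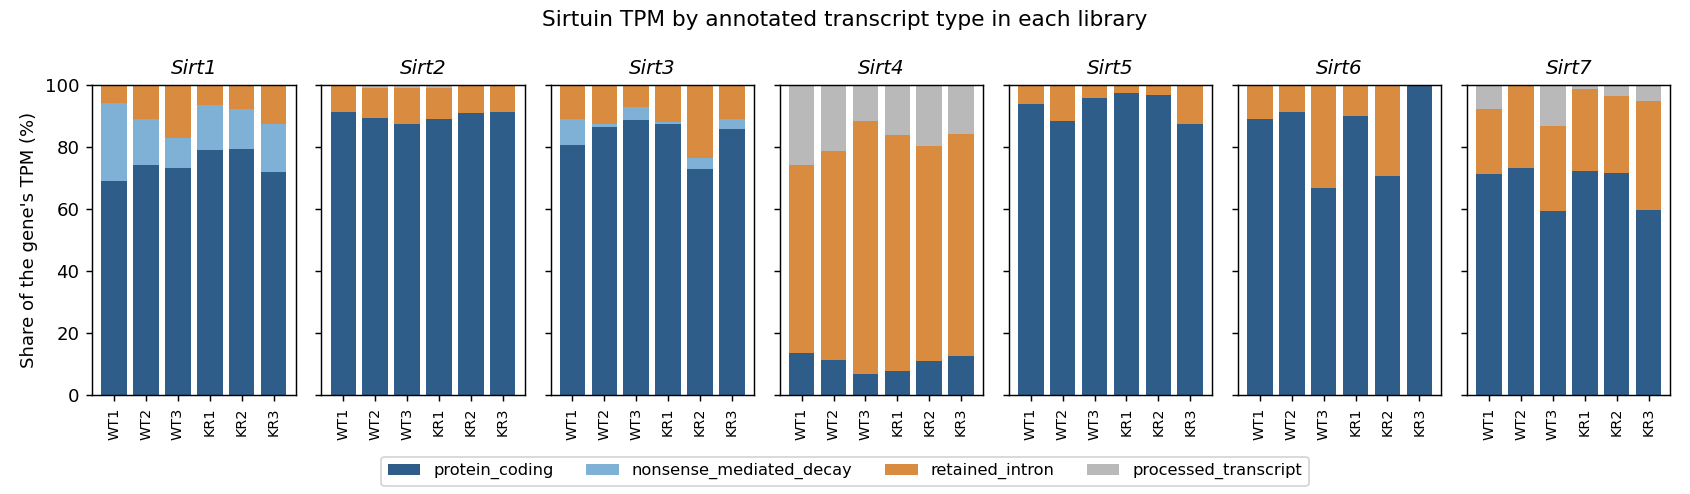
Share of each sirtuin's TPM (percent, bars summing to 100) by annotated transcript type in each library. In *Sirt4* the protein_coding part takes 6.67% to 13.6%, while in *Sirt2* it takes 87.3% to 91.4%.

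Among single transcripts, Sirt2-202, the form without the exon of 47 bases, led *Sirt2* in every library. Its share of *Sirt2* TPM was 67.5%, 69.3% and 48.6% in the Pax7WT libraries and 58.2%, 67.0% and 62.6% in the Pax7KR libraries. Sirt2-201, the longer form, held 15.5%, 12.3% and 29.1% in Pax7WT and 21.6%, 12.9% and 18.5% in Pax7KR. Pax7WT replicate 3 had the lowest share of the short form and the highest of the long one, and the genotypes overlapped for both (means of Sirt2-202 61.8% and 62.6%, exact permutation p = 1, two-sided, n = 3 per genotype).

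Sirt1-201, with the exon of 117 bases, led *Sirt1* with 63.4% ± 6.64 (SD, n = 6), and Sirt1-202 without it had 7.22%, 0% and 12.1% in Pax7WT and 13.8%, 10.2% and 15.2% in Pax7KR. The 0% was in Pax7WT replicate 2, the shallowest library, and the groups overlapped. Sirt3-202 led *Sirt3*, the main mitochondrial deacetylase, with 65.6% ± 17.5. Its reading frame has 257 codons, and its share ran from 42.3% in Pax7WT replicate 1 to 86.4% in Pax7WT replicate 2. Sirt7-201 held 61.0% ± 10.5 of *Sirt7*, the leading form of *Sirt5* held 49.4% ± 8.45 of *Sirt5* and Sirt6-201 held 49.4% ± 11.8 of *Sirt6*. In Pax7WT replicate 3, Sirt6-201 held 26.1% and lay below Sirt6-202 (40.6%) and Sirt6-203 (33.3%). Of the 59 sirtuin transcripts, 4 were listed at 0 in all 6 libraries and 26 at 0 in some libraries only. Of the 55 above 0 in a library, the shares of the genotypes did not overlap for 2, beside 7.99% of 66402 such transcripts of all tested genes with at least 2 of them. These were minor retained-intron forms, named after their values were seen. Sirt1-206 had mean shares of 1.94% in Pax7WT and 4.89% in Pax7KR, and Sirt5-210 had 1.97% and 0.576% (exact permutation p = 0.1 for each, two-sided, n = 3 per genotype, the smallest this design allows). Of the 28 transcripts with a mean share of 5% or more, 0 were without overlap, beside 9.26% of 39142 over all genes. Among these 28 were 9 that were at 0 in some library. These shares are salmon's division of reads among overlapping forms, and their estimation error was not given.

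Before the comparison of genotypes, the libraries held 17716838 to 27742441 reads on the matched genes. The satellite cell markers summed to 7878 to 8633 CPM per library (counts scaled to a common library size by the TMM method), and 10 of 10 were tested. *Pax7* itself was at 1410 to 1666 CPM and did not pass the test (log2 fold change -0.05 ± 0.08, SE, adjusted p = 0.998 in edgeR). Of the markers of other cells, fibro-adipogenic ones summed to 599 to 666 CPM over the 6 libraries, of which *Dpt* alone had 570.5 to 633 CPM, with *Pdgfra* at 1.51 to 3.81 CPM. Endothelial markers summed to 256 to 353 CPM, of which *Tek* alone had 184 to 231 CPM, and smooth muscle and pericyte markers to 201 to 286 CPM. Erythroid markers summed to 106.5 to 335.7 CPM and immune markers to 4.15 to 5.91 CPM, with *Cd3e* at 0 in all libraries. Committed or differentiating muscle cell markers summed to 118.5 to 175.1 CPM and myofibre markers to 33.0 to 46.6 CPM. Tenocyte markers summed to 18.3 to 34.9 CPM, with the highest sum in Pax7WT replicate 3. Schwann and glial markers summed to 48.7 to 71.9 CPM, and 1 of these 5 had an unadjusted p under 0.05 in edgeR. The sums of the genotypes overlapped for each of these lists. Pax7WT replicate 2 had the fewest reads and the lowest sum of immediate early genes (16340 CPM, against 23200 to 30950 in the other 5). Pax7KR replicate 2 had the lowest level of all 4 Y-linked genes read. *Ddx3y* was at 52.0 CPM against 117 to 135 CPM in the other 5, *Eif2s3y* at 38.4 against 77.0 to 114 CPM, *Kdm5d* at 26.0 against 58.7 to 70.9 CPM and *Uty* at 14.3 against 37.4 to 42.2 CPM, with *Xist* at 0.437 to 2.29 CPM in all 6. The part of these features in the results was not tested.

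0 of the 7 sirtuins passed an adjusted p of 0.1 in the comparison of Pax7KR with Pax7WT in edgeR's quasi-likelihood test, beside 0 of all 17152 genes tested (0.0%). All 7 passed the filter on low counts, with 197 to 5300 reads per gene and library. Unadjusted p fell under 0.05 for 0 of the 7, against 803 genes (4.68%) of all those tested, and DESeq2 called 30 genes, none of them a sirtuin. Without Pax7KR replicate 2 the 7 log2 fold changes lay between -0.05 (*Sirt6*) and 0.22 (*Sirt3*), again with 0 past the adjusted p. With all 6 libraries the log2 fold changes had a median of 0.0076, beside -0.0037 for all genes, and 5 were above 0 and 2 below. Their median size without sign was 0.04, beside 0.11 for all genes tested. The latter include genes at far lower levels than any sirtuin, and these medians were not matched for level. In sorted cells, a change in the share of cells of 1 type cannot be told apart from a change in RNA per cell.

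The nuclear and cytosolic members are given first. *Sirt2* was at 194.8, 197.4 and 192.3 CPM in Pax7WT and at 189.8, 178.6 and 198.8 CPM in Pax7KR. The groups overlapped, with both the lowest and the highest library in Pax7KR. The log2 difference was -0.04 ± 0.06 (SE) at an adjusted p of 0.998 in edgeR. Its 95% confidence interval reached from 11.4% lower, a change of -11.4%, to 6.23% higher in Pax7KR.

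*Sirt1*, the founding mammalian member and a deacetylase of histones, p53 and FOXO proteins, was at 50.6, 39.9 and 46.3 CPM in Pax7WT and at 44.2, 44.4 and 48.6 CPM in Pax7KR. The Pax7WT libraries enclosed all of the Pax7KR ones. It gave a log2 difference of 0.0022 ± 0.09 (SE) at an adjusted p of 0.999 in edgeR, with a 95% interval of -12.6% to 14.8%. The sign of this value changed to -0.08 without Pax7WT replicate 2, the library with the lowest level.

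*Sirt6* was at 12.6, 11.1 and 9.89 CPM in Pax7WT and at 10.6, 10.3 and 11.1 CPM in Pax7KR, again inside the Pax7WT range. *Sirt7* was at 32.0, 37.8 and 33.9 CPM in Pax7WT and at 34.5, 32.5 and 37.2 CPM in Pax7KR, with the groups overlapping. Their log2 fold changes were -0.08 ± 0.14 and 0.01 ± 0.09 (SE; adjusted p = 0.998 for both in edgeR). The intervals were -22.9% to 16.1% for *Sirt6* and -12.3% to 15.2% for *Sirt7*. When the mean length of each gene's transcripts entered the fit as an offset, the log2 fold change of *Sirt7* was -0.16 (adjusted p = 0.984 in edgeR).

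Of the mitochondrial members, *Sirt4* was the only sirtuin whose genotypes did not overlap in CPM. It was at 13.4, 15.6 and 15.3 CPM in Pax7WT and at 16.8, 16.5 and 16.8 CPM in Pax7KR, so each Pax7KR library was above each Pax7WT library. In TPM over all its transcripts the genotypes overlapped, at 30.4, 36.2 and 41.4 in Pax7WT and at 45.8, 42.5 and 40.5 in Pax7KR. This 1 of 7 genes (14.3%) stands beside 1773 of all tested genes (10.3%) without overlap, in either direction. The log2 fold change was 0.18 ± 0.11 (SE) at an adjusted p of 0.992 in edgeR, and the 95% interval ran from -4.00% to 33.6%. The exact two-sided permutation p was 0.1, the smallest that 3 against 3 can give. The log2 fold change stayed between 0.11 and 0.22 when each library was left out in turn. Most of these reads lay on the forms without a reading frame, and the TPM of the protein_coding forms overlapped between genotypes (4.13, 4.08 and 2.76 in Pax7WT, 3.48, 4.71 and 5.10 in Pax7KR).

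*Sirt3* was at 9.89, 11.6 and 12.6 CPM in Pax7WT and at 13.2, 10.3 and 13.3 CPM in Pax7KR. The highest 2 libraries were Pax7KR, and the groups overlapped. The difference of 0.11 ± 0.15 on the log2 scale (SE, adjusted p = 0.998 in edgeR) had an interval of -13.3% to 34.6%, and it was -0.020 or -0.021 when an offset for transcript length was added. *Sirt5*, which removes succinyl and malonyl groups, was at 16.6, 23.6 and 19.3 CPM in Pax7WT and at 21.4, 18.5 and 19.8 CPM in Pax7KR. Both its lowest and its highest library were Pax7WT. The difference of 0.01 ± 0.13 on the log2 scale (SE, adjusted p = 0.998 in edgeR) had an interval of -17.1% to 21.98%.

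**Figure D3:**
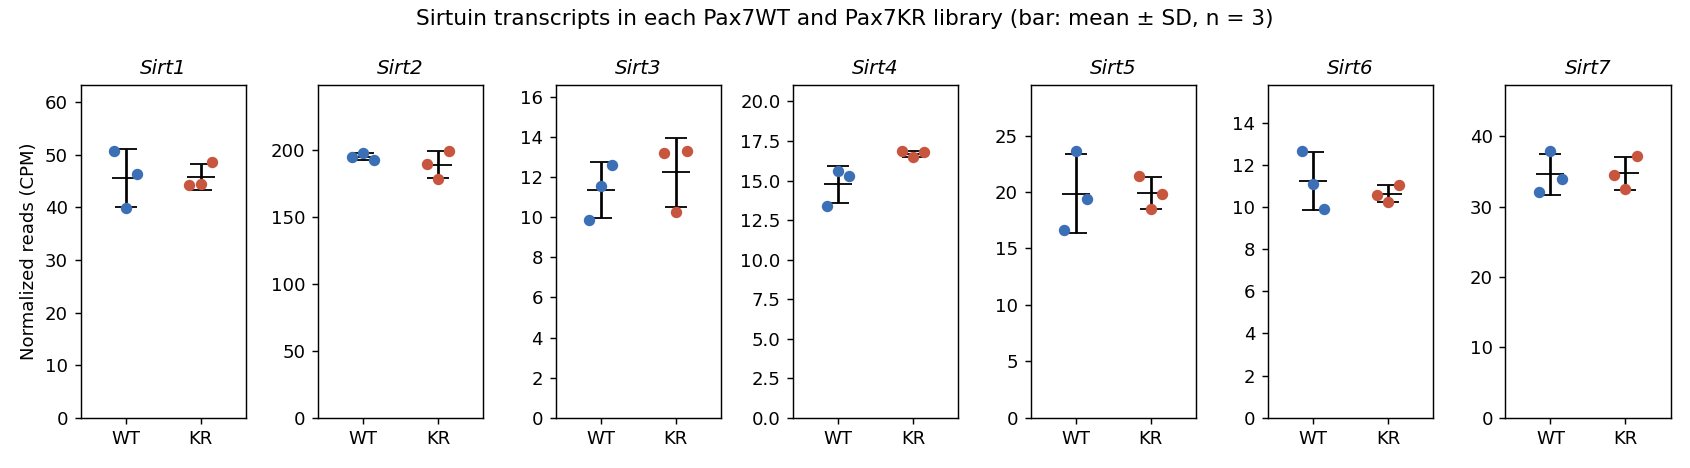
Normalized reads (CPM, each axis from 0) of each sirtuin in the 3 Pax7WT (blue) and 3 Pax7KR (red) libraries, with the mean and SD as bars. The CPM of the genotypes overlaps in 6 genes, and in *Sirt4* the Pax7KR libraries, at 16.5 to 16.8 CPM, lie above the Pax7WT libraries, at 13.4 to 15.6 CPM.

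**Figure D4:**
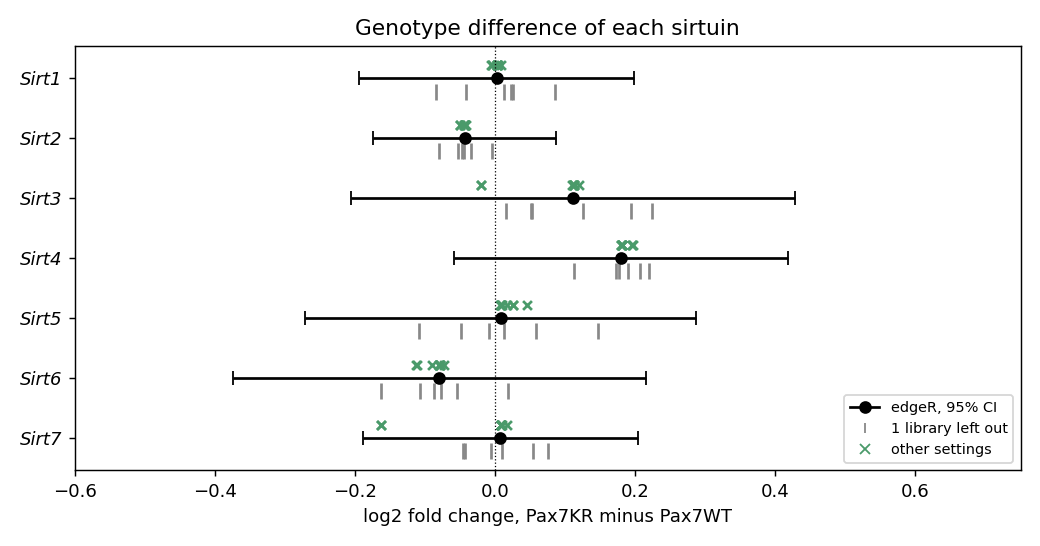
Log2 fold change of each sirtuin (Pax7KR minus Pax7WT) in edgeR with its 95% confidence interval (black), with 1 library left out (grey) and under other settings (green). All 7 intervals include 0, and the *Sirt4* values stay above 0.

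The spread between libraries was smallest for *Sirt2*, whose 6 values had a coefficient of variation of 3.82%. The median was 5.33% over the 1887 genes within a factor of 2 of its level. *Sirt1* had 8.26% beside 7.03%, *Sirt7* 6.90% beside 7.69%, *Sirt4* 8.26% beside 10.1% and *Sirt6* 8.81% beside 11.96% for genes of like level. *Sirt5* (12.05% beside 9.25%) and *Sirt3* (12.5% beside 11.5%) were the most variable.

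The genes lie on 5 chromosomes, and parts of them share sequence or exons with other genes, which bears on how reads could be assigned. *Sirt1* (chromosome 10, 63319005 to 63381704) and *Sirt6* (chromosome 10, 81621785 to 81627797) are on the - strand of the same chromosome. *Sirt2* (chromosome 7, 28766735 to 28788661) is on the + strand and *Sirt3* (chromosome 7, 140863666 to 140882309) on the - strand. *Sirt4* (chromosome 5, 115478010 to 115484725) and *Sirt7* (chromosome 11, 120618372 to 120625240) are on the - strand, and *Sirt5* (chromosome 13, 43365496 to 43395203) is on the + strand, all in GRCm38.

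Exons of *Sirt3* overlap those of *Ric8a* by 418 bases and of *Psmd13* by 342 bases on the other strand, and 12.1% of its sequences of 31 bases also occur in transcripts of other genes. The library kit marks strand, but whether salmon was told so is not given in the sources used here. *Sirt7* shares 124 exon bases with *Mafg* on the same strand. *Sirt5* shares 16.4% of its sequences of 31 bases with other genes, most of them with *Wdr31*. *Sirt1* shares 3.05% of its sequences of 31 bases, *Sirt7* 2.19%, *Sirt2* 1.34% and *Sirt6* 0.428%. On the other strand *Sirt1* overlaps exons of *Gm16145* by 65 bases and *Sirt2* those of *Nfkbib* by 42 bases. How far this sharing affects the levels of these 6 genes was not measured. *Sirt4* shares none and overlaps no other exon.

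Upstream windows of 250 bases before a RefSeq start (GRCm38.p6) were matched for all 7 genes, 9 windows in all. Windows of other members also lie before leading forms, such as that of *Sirt7* before Sirt7-201. Only the window of *Sirt1* is shown, which lies before the start of Sirt1-201 and Sirt1-202. Sirt1-203, which starts farther upstream, had 0% to 1.61% of the TPM in the 6 libraries. The window lies at chr10:63339036-63339285 (- strand), and the capitals mark matches to CACGTG and GGGCGG on either strand.
Sirt1 upstream: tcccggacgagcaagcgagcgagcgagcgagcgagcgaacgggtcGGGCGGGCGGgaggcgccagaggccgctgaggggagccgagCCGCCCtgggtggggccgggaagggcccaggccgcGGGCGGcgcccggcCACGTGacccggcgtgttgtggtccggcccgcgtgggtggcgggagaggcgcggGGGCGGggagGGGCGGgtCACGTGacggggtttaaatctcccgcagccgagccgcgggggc

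CACGTG, the E-box letters, occurred 2 times in this window, beginning 115 and 43 bases before the start, and in none of the other sirtuin windows. It was found in 6.02% of all 32851 RefSeq windows of this length. GGGCGG, a GC-box core, occurred 6 times, of which 2 overlap, and was found in 32.7% of all windows. It also occurred 3 times in a window of *Sirt3* and 1 time in a window of *Sirt2*, *Sirt5*, *Sirt6* and *Sirt7* each. G and C made up 79.2% of the *Sirt1* window, beside a median of 52.4% over all windows. The backgrounds given here were not matched for this content, and its part in the match counts was not tested. CCAAT occurred 2 times upstream of *Sirt2* and 1 time upstream of *Sirt3* and *Sirt5* each, and was found in 33.8% of all windows. TAATTA, a core bound by homeodomains, was in 0 of the 9 sirtuin windows and in 4.84% of all windows. All letters were searched on both strands, and a match describes letters only.

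Genes that regulate, feed or compete with sirtuins, or encode their substrates, were read from 6 lists with 66 genes, of which 64 were tested. Of these, 35 were higher and 29 lower in Pax7KR, with a median log2 fold change of 0.0065, and 0 passed the adjusted p of 0.1. Unadjusted p was under 0.05 for 4 genes, *Nmnat2*, *Per2*, *Foxo3* and *Acadl* (6.25%, beside 4.68% of all genes), and the genotypes did not overlap for 8 genes (12.5%, beside 10.3%).

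Of the SIRT1 regulators, 6 of 6 were tested, 2 were higher and 4 lower in Pax7KR, and 0 passed. *Ccar2*, whose product inhibits SIRT1, was at 82.6, 83.5 and 81.3 CPM in Pax7WT and at 88.5, 84.6 and 85.7 CPM in Pax7KR. The groups did not overlap and the log2 difference was 0.06 ± 0.06 (SE) at an adjusted p of 0.998 in edgeR. *Usp22*, a deubiquitinase of SIRT1, had means of 141.4 and 141.2 CPM in Pax7WT and Pax7KR, and *Rps19bp1*, an activator of SIRT1 also called AROS, had 10.2 and 9.39 CPM. *Hic1*, a repressor of *Sirt1* transcription, had 17.0 and 18.9 CPM.

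Of the NAD supply genes, 11 of 12 were tested, 6 were higher and 5 lower, and 0 passed. *Nampt*, the rate-limiting enzyme of NAD+ salvage, was at 41.2, 41.7 and 43.4 CPM in Pax7WT and at 41.7, 43.0 and 42.8 CPM in Pax7KR, with a log2 fold change of 0.01 ± 0.07 (SE). *Nmnat2*, which makes NAD+ in the cytosol, was at 7.42, 6.49 and 5.90 CPM in Pax7WT and at 5.55, 4.36 and 3.12 CPM in Pax7KR. All 3 Pax7KR libraries were below the Pax7WT ones, and the log2 fold change of -0.60 ± 0.23 (SE) had an adjusted p of 0.992 in edgeR. *Naprt*, of the nicotinic acid route, had means of 11 and 9.71 CPM. *Nadk*, which turns NAD+ into NADP+, had 101.2 and 105.5 CPM, and *Slc25a51*, the mitochondrial NAD+ carrier, had 80.3 and 77.9 CPM.

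Of the other NAD consumers, 8 of 8 were tested, 6 were higher and 2 lower, and 0 passed. The tankyrases *Tnks2* (165.5 CPM in Pax7WT and 166.4 CPM in Pax7KR) and *Tnks* (128.6 and 126.2 CPM) had the highest levels. *Cd38*, an NAD+ hydrolase of immune cells, was at 1.09 and 1.65 CPM and *Bst1*, its relative, at 0.0998 and 0.234 CPM.

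Of the nuclear and cytosolic substrates, 20 of 20 were tested, 10 were higher and 10 lower, and 0 passed the adjusted p. *Per2*, a clock repressor, was at 95.1, 82.1 and 88.3 CPM in Pax7WT and at 104.5, 101.4 and 102.4 CPM in Pax7KR, without overlap (log2 fold change 0.21 ± 0.07, SE, adjusted p = 0.992 in edgeR). *Foxo3*, a FOXO transcription factor needed for satellite cell quiescence, was at 132.6, 137.5 and 159.1 CPM in Pax7WT and at 233.3, 234.6 and 150.8 CPM in Pax7KR. Here 2 Pax7KR libraries stood far above the third, which overlapped with Pax7WT (log2 fold change 0.53 ± 0.20, SE, adjusted p = 0.992 in edgeR). *Foxo1* had means of 307.9 and 333.2 CPM.

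Of the mitochondrial substrates, 12 of 13 were tested, 6 were higher and 6 lower, and 0 passed. *Acadl*, an acyl-CoA dehydrogenase of fatty acid oxidation deacetylated by SIRT3, was at 57.8, 60.4 and 75.2 CPM in Pax7WT and at 56.4, 52.7 and 57.6 CPM in Pax7KR. The groups lay just apart (log2 fold change -0.21 ± 0.09, SE, adjusted p = 0.992 in edgeR). *Sod2*, the mitochondrial superoxide dismutase, had means of 52.0 and 47.7 CPM without overlap. *Sdha* (279.7 and 283.0 CPM) and *Glud1* (204.3 and 198.2 CPM) had the highest levels of the list.

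Of the acetyltransferases and *Hdac6*, 8 of 8 were tested, 6 were higher and 2 lower, and 0 passed. *Kat8*, the gene of MYST1, was at 21.2, 25.7 and 20.8 CPM in Pax7WT and at 23.1, 24.8 and 21.5 CPM in Pax7KR, with the groups overlapping (log2 fold change 0.04 ± 0.11, SE, adjusted p = 0.998 in edgeR). *Ep300* had means of 195.9 and 202.3 CPM, *Crebbp* of 155.4 and 169.4 CPM and *Kat7* of 119.9 and 115.2 CPM. *Myf5*, the target through which PAX7 commits satellite cells to the muscle lineage, was at 413 to 436 CPM in Pax7WT and at 402 to 456 CPM in Pax7KR, again with overlap.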

How the data were processed

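The authors quantified paired reads with Salmon (1.3.0) against GENCODE transcripts of mouse build GRCm38 with genome decoys, and deposited per transcript estimated counts, TPM and effective lengths. Their deposited table of log2 fold changes, p-values and mean counts (DESeq2 1.28.1) was not used. Here 139791 of 140992 transcripts were matched by identifier to GENCODE vM21, which is older than the authors' release but has its build. The other 1201 (0.592% to 0.634% of reads) were left out. Estimated counts were summed per gene and rounded. A gene entered the test with at least 5 reads in at least 2 libraries. Genotype was tested in edgeR (4.0.16) with TMM, robust quasi-likelihood fits and Benjamini-Hochberg adjustment over 17152 genes at 0.1. CPM values use these library sizes. Deposited TPM was summed per gene, and neighbours in level were compared as log2(TPM + 0.1). Alternatives used DESeq2 (1.42.0), limma (3.58.1), other filters, length offsets and left-out libraries. The scripts were tested on simulated data. Named related genes are the 2 highest in CPM and the 2 lowest in p of each list, with *Nampt*, *Ccar2*, *Rps19bp1*, *Kat8*, *Pax7* and *Myf5*. The family was picked for this report, and the lists were written, with earlier results of these data known, although the family rule itself uses no measured value. The Y-linked genes were described after their values were seen. Libraries pair to pair differed by more than sampling noise, so none was counted as a duplicate.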

Additional observations from a re-analysis of the deposited data

How the results depend on the processing

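Across 15 alternatives for each of the 7 sirtuins (105 fits), 0 gave an adjusted p under 0.1 (lowest 0.829), and 89 kept the direction and 16 turned it. With the length offset, *Sirt1* was -0.0050 in DESeq2 and -0.0051 in edgeR, *Sirt3* -0.020 and -0.021 and *Sirt7* -0.16 in both on the log2 scale, and limma-voom gave *Sirt1* -0.0064. Leaving out each library in turn gave log2 ranges of -0.085 to 0.085 for *Sirt1*, -0.11 to 0.15 for *Sirt5*, -0.16 to 0.018 for *Sirt6* and -0.046 to 0.075 for *Sirt7*, while *Sirt2* (-0.080 to -0.0040, the smallest without Pax7KR replicate 2), *Sirt3* (0.016 without Pax7WT replicate 1 to 0.22 without Pax7KR replicate 2) and *Sirt4* (0.11 to 0.22) kept their direction. The cause of these turns was not tested. Over all genes, the number called was 30 with DESeq2, 45 with DESeq2 and the length offset, 157 with no filter and 13 with the replicate block, and 1 to 32 with 1 library left out (the most without Pax7KR replicate 3). The labels do not say whether shared replicate numbers pair the libraries. Same-numbered libraries had correlations of 0.00113, 0.0567 and -0.0615 in their deviations from the group means. Differently numbered ones had -0.0998 to 0.0968. With 3 libraries per group, such values cannot decide whether the numbers mark a pairing. The block called no sirtuin. With protein_coding transcripts alone, the log2 steps were 5.46 (*Sirt2* over *Sirt4*), -2.66 (*Sirt4* over *Sirt7*), 0.51 (*Sirt7* over *Sirt1*), -0.25 (*Sirt1* over *Sirt5*) and 0.76 (*Sirt5* over *Sirt3*), each with an adjusted p of 0.0375 in the exact permutation test. These pairs kept the order over all transcripts, so they are not all neighbours under this count. Each was at the smallest unadjusted p of that test. The adjusted p is below the 0.0625 of the main count because more pairs reached that smallest value. The protein_coding count of *Sirt5* includes forms of 134 and 95 codons, and its pairs were not compared without them. Over all transcripts, *Sirt4* over *Sirt7* ranged from -0.016 to 0.13 with 1 library left out. By share of reads in place of TPM, the leading form held 70.4% of *Sirt1*, 32.7% of *Sirt4* and 62.2% of *Sirt6*. Of the related genes, 2 to 4 had an unadjusted p under 0.05 with 1 library left out. The sirtuins had 197 to 5300 reads per library, and the smallest change that these libraries could show was not computed.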

Other observations

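The genes whose pattern over the 6 libraries was most like that of each sirtuin were ranked by Pearson's r of log2(CPM + 1) among the 9520 other genes with a mean of at least 10 CPM, as a description. For *Sirt2* these were *Dennd1a* (r = 0.99) and *Ralgds* (r = 0.99), and for *Sirt1* they were *Sdf4* (r = 0.996) and *Tacc1* (r = 0.99). For *Sirt4* they were *AW146154* (r = 0.98) and *Zfp740* (r = 0.98). *Mogs* and *Slc19a1* ranked first for *Sirt5*, *Golga1* and *Csad* for *Sirt3*, *Rap1gap2* and *Cers2* for *Sirt6*, and *Srsf6* and *Adpgk* for *Sirt7*, with r from 0.97 to 0.998. Between 7 and 30 genes exceeded an r of 0.95 for each sirtuin, and the values of all genes come from the same 6 libraries. How many of 9520 unrelated genes would exceed it over 6 libraries was not computed, so no link between the named genes follows.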
